A study of Mus musculus with 8 samples.

Results

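Calcitonin gene-related peptide (CGRP) and its receptor were followed through 7 genes, picked by symbol from the 49585 genes measured: the peptide genes Calca, Calcb and Adm, the receptor gene Calcrl, and Ramp1, Ramp2 and Ramp3, which encode the proteins that pair with it. All 7 symbols were found, each with 1 row in every library, and all 7 passed the filter on low values. RNA came from the dorsal horn at lumbar segments 4 to 6 of adult C57BL/6J mice, in 4 libraries from miR-96 knock-out animals and 4 from wild-type animals, and the series asks about pain sensitivity without this microRNA. Nothing in the labels names a treatment, or says how the knock-out was made, whether it is global, or whether miR-182 and miR-183, which lie beside miR-96, were left intact. The design text names 4 mice of each genotype, as many as there are libraries. Which animal gave which library is not labelled, and p-values below therefore describe library-to-library spread, which may be partly technical.

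CGRP is a neuropeptide made in 2 forms: Calca gives the alpha form, and by alternative splicing also calcitonin, and Calcb gives the beta form. The CGRP receptor is a complex of the G-protein-coupled receptor encoded by Calcrl with RAMP1; the same receptor with RAMP2 or RAMP3 answers to adrenomedullin, the product of Adm, and signals mainly through Gs and cyclic AMP. In rodent spinal cord, CGRP is stored in the endings of primary sensory neurons, whose cell bodies lie in the dorsal root ganglia, and is also made by motor neurons of the ventral horn. Calcrl and Ramp2 are known for strong expression in blood and lymphatic endothelium.

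The microRNA removed in the knock-out animals is shown with its cluster partners, 5′ to 3′ from RefSeq (GRCm38.p6), with the seed (bases 2 to 8) in capitals, because the seeds of these microRNAs are near copies of each other.
mmu-miR-96-5p: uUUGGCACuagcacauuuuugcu
mmu-miR-182-5p: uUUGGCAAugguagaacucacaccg
mmu-miR-183-5p: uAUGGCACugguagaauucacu
The mature miR-96-5p lies at chr6:30169506-30169528 on the minus strand. The gene Mir96 was listed at 0 FPKM in all 8 libraries, and polyadenylated RNA libraries of this kind do not hold the mature microRNA, so these values do not check the genotype labels.

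Matches to the miR-96 seed were looked for in the longest annotated 3′ untranslated region (UTR) of each member, as GTGCCAA (pairing with bases 2 to 8) or TGCCAAA (bases 2 to 7 followed by A), on the transcript strand. Calcrl held 1 GTGCCAA in 2828 nt, Ramp3 held 1 TGCCAAA in 737 nt, and Calca, Calcb, Ramp1, Ramp2 and Adm held neither. Among 20674 genes with such a UTR of at least 50 nt, 8.06% held GTGCCAA and 12.2% held TGCCAAA. The matched stretches are shown because they are the letters through which miR-96 could pair with a member, with the match in capitals.
Calcrl, chr2:84331138-84331166, minus strand: ctaaagctgaaGTGCCAAttaaaatattt
Ramp3, chr11:6676843-6676871, plus strand: ctacctggccaTGCCAAAgtcctcctgac
A match is a description of the letters, not a tested site.

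The libraries were not alike within a genotype. By an estimate from the steps of low values, their depths lay between 31600000 and 42900000 fragments. Wild-type replicate 1 stood apart: its ribosomal protein genes (76 genes) summed to 36517 FPKM (fragments scaled by transcript length and by the mapped total of the library), against 15798 to 19502 FPKM in the knock-out libraries and 15877 to 20675 FPKM in the other wild-type libraries. The 73 of these genes that were tested all had a log2 fold change below 0 (median -0.34). Levels also followed transcript length differently between libraries, with a slope in log2 per doubling of length of 0.001 to 0.039 in the knock-out libraries and of -0.100, -0.015, -0.006 and 0.042 in wild-type replicates 1 to 4. Markers of dorsal horn neurons were present in every library: Slc17a6, the glutamate transporter of excitatory neurons, stood at 113 to 120 FPKM in knock-out and 96.7 to 136 FPKM in wild type, and Slc32a1, the transporter of inhibitory neurons, at 73.2 to 81.4 FPKM in knock-out and 81.9 to 95.2 FPKM in wild type. The Slc32a1 ranges did not overlap, as was so for 1.12% of all genes tested with knock-out lower. Because the tissue was measured in bulk, fewer cells of a type and less RNA per cell cannot be told apart.

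None of the 7 members differed between genotypes at an adjusted p under 0.05, and neither did any other gene: limma on log2(FPKM + 1) called 0 of 15061 genes tested (0.0%). At an unadjusted p under 0.05 it called 0 of the 7 members, against 831 genes in all (5.52%), 555 of them higher (3.69%) and 276 lower (1.83%) in knock-out. That split moved with the scaling between libraries, to 467 higher and 398 lower with median-ratio scaling and 419 higher and 450 lower with quantile scaling. The total of 831 depended on single libraries, being 325, 352, 1438 or 425 without knock-out replicate 1, 2, 3 or 4, and 3151 without wild-type replicate 4. Knock-out and wild-type values overlapped for all 7 members, and separated for 457 genes in all (3.03%; 1.91% with knock-out higher and 1.12% with knock-out lower). The log2 fold change was above 0 for Calca, Calcb and Calcrl and below 0 for the other 4 members, with a median of -0.09, while over all genes tested the median was 0.014 with 53.1% above 0 and 46.9% below.

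**Figure D1:**
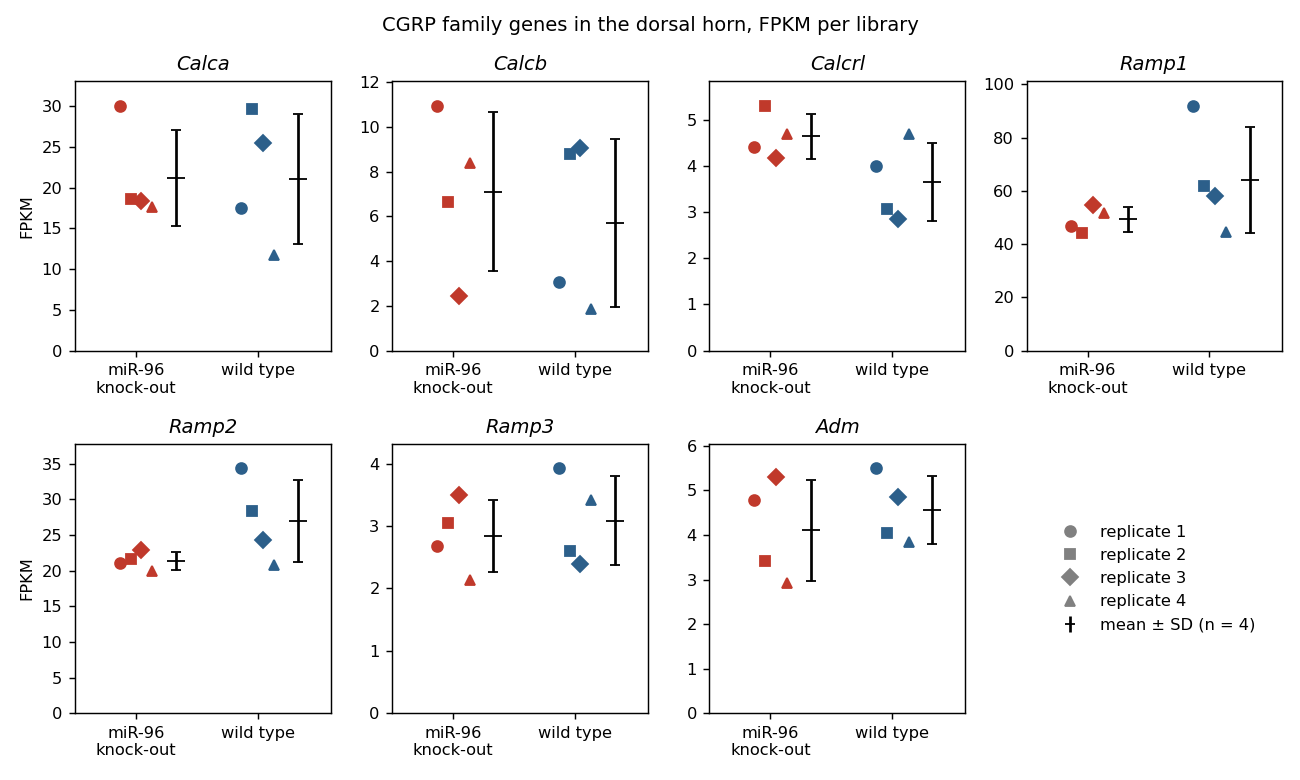
FPKM of the 7 genes in each library, with 4 miR-96 knock-out libraries (red) left of 4 wild-type libraries (blue), a symbol for each replicate number, and bars for mean ± SD. The groups overlap in every panel; Calcb runs from 1.86 to 10.96 FPKM, and Ramp1 is highest in wild-type replicate 1 at 92.0 FPKM.

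Calca (chr7:114631478-114636357, minus strand) was the more abundant CGRP gene. It stood at 30.1, 18.7, 18.4 and 17.7 FPKM in knock-out replicates 1 to 4, against 17.5, 29.6, 25.4 and 11.7 FPKM in wild-type replicates 1 to 4. Knock-out replicate 1 and wild-type replicate 2 were high, wild-type replicate 4 was lowest, and the other knock-out libraries lay inside the wild-type range. The means were 21.2 ± 5.94 FPKM in knock-out and 21.1 ± 8.01 FPKM in wild type (SD, n = 4 each), with a log2 fold change of 0.05 (SE 0.27, 95% interval -0.55 to 0.66; limma adjusted p = 0.943). The direction was not stable: the value was -0.12 once knock-out replicate 1 was dropped and -0.19 once wild-type replicate 4 was. The deposited value covers the whole gene, so messages for alpha-CGRP and for calcitonin are not told apart.

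Calcb (chr7:114718643-114723365, plus strand), a neighbour of Calca, was the most variable member. It stood at 10.96, 6.66, 2.47 and 8.37 FPKM in knock-out replicates 1 to 4, against 3.09, 8.81, 9.06 and 1.86 FPKM in wild-type replicates 1 to 4. Each genotype held both high and low libraries, with knock-out replicate 3 and wild-type replicates 1 and 4 low. The SD of its log2(FPKM + 1) over the 8 libraries was 0.80, larger than for 99.2% of the genes tested, and that of Calca was 0.44, larger than for 93.2%. Calcb averaged 7.11 ± 3.57 FPKM in knock-out and 5.71 ± 3.77 FPKM in wild type (SD, n = 4 each). The genotype difference was 0.34 on the log2 scale (SE 0.48; limma adjusted p = 0.768), with a 95% interval of -0.72 to 1.41, or 0.606-fold to 2.65-fold, so large differences in either direction were not resolved. Dropping knock-out replicate 3 gave 0.70, and dropping wild-type replicate 4 gave -0.0015. At the estimated depths, Calcb rested on about 50 to 350 fragments a library and Calca on about 360 to 1010.

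The CGRP-coding transcripts of both genes are near copies over part of their coding sequence, which is shown because reads from it are hard to assign. The most alike window of 90 coding bases, read from GENCODE M21 on GRCm38 across an exon junction (Calca-201 within chr7:114632511-114634468, Calcb-201 within chr7:114720214-114722063), had 87 identical bases, with the 3 that differ in capitals.
Calca: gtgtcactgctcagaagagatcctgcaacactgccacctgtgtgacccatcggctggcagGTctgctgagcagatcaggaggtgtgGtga
Calcb: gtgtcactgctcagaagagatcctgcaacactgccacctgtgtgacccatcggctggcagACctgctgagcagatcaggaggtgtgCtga
Over whole transcripts the overlap was small: 12 of 1678 stretches of 50 bases in Calca (0.715%), and 12 of 1260 in Calcb (0.952%), were also found in the other gene, and none of 100 bases were. Calca was 2.75, 2.80, 7.46 and 2.11 times the FPKM of Calcb in knock-out replicates 1 to 4, against 5.67, 3.36, 2.81 and 6.30 times in wild-type replicates 1 to 4. The ratio was highest in the 3 libraries where Calcb was low, whichever their genotype, and averaged 3.78 ± 2.47 in knock-out and 4.53 ± 1.71 in wild type (SD, n = 4 each).

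The genes whose profile over the 8 libraries was most like that of Calcb were genes of cholinergic neurons. Likeness was the root mean square distance between log2(FPKM + 1) values centred on each gene's mean, among 12859 protein-coding genes. Nearest were Slc18a3, the vesicular acetylcholine transporter (0.15), Slc5a7, the choline transporter that supplies acetylcholine synthesis (0.26), and Slc10a4, a carrier of cholinergic synaptic vesicles (0.26); the median candidate stood at 0.77. Chodl, Chat (choline acetyltransferase) and Prph (peripherin), all on the list of motor and cholinergic markers, ranked 4, 5 and 7, and Calca ranked 21 at 0.48. Of the 9 markers on that list, 8 had their 3 lowest values in the same libraries as Calcb, namely knock-out replicate 3 and wild-type replicates 1 and 4; Mmp9 did not. The 8 libraries share a dissection and a scaling, and this is a description, with no test.

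The levels of these markers also spanned a wide range over the libraries. Chat, Slc18a3 and Slc5a7, chosen after their values were seen, summed to 39.8, 18.2, 7.30 and 24.1 FPKM in knock-out replicates 1 to 4, against 8.004, 28.7, 25.4 and 7.58 FPKM in wild-type replicates 1 to 4. Calcb divided by that sum was 0.275, 0.366, 0.338 and 0.348 in knock-out replicates 1 to 4, against 0.386, 0.307, 0.357 and 0.245 in wild-type replicates 1 to 4. The ratio averaged 0.332 ± 0.039 in knock-out and 0.324 ± 0.062 in wild type (SD, n = 4 each), and its coefficient of variation over the 8 libraries was 14.7%, against 54.3% for Calcb alone. A steady ratio was partly built in, since Slc18a3 and Slc5a7 are the genes nearest to Calcb. The whole list of 9 markers summed to 44.2 to 126 FPKM in knock-out and 41.2 to 110 FPKM in wild type, a 3.06-fold span where Calcb spanned 5.89-fold. Calcb over that whole sum averaged 0.0865 ± 0.0222 in knock-out and 0.0720 ± 0.0213 in wild type (SD, n = 4 each), with a coefficient of variation of 27.2% over the 8 libraries. Of its 8 tested markers, 7 had a log2 fold change above 0 (median 0.20) and none had an unadjusted p under 0.05. The part of these cells in the Calcb values was not tested.

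**Figure D2:**
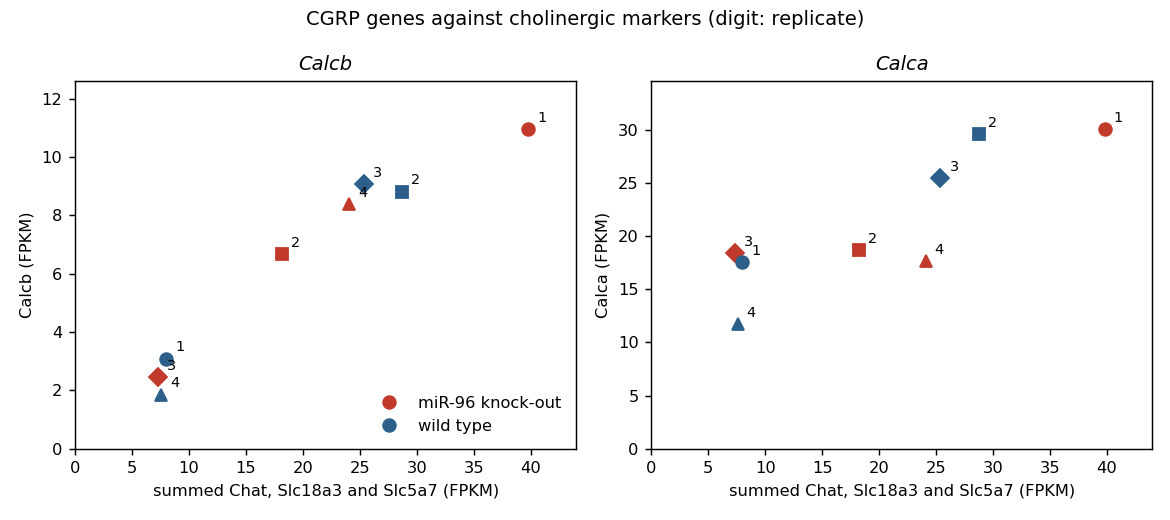
Calcb (left) and Calca (right), in FPKM, against the summed FPKM of Chat, Slc18a3 and Slc5a7 in the same library, for miR-96 knock-out (red) and wild-type (blue) libraries, with replicate numbers beside the points. Calcb is low in the 3 libraries with the lowest sums (7.30 to 8.004 FPKM) and highest in knock-out replicate 1, while Calca in those 3 libraries runs from 11.7 to 18.4 FPKM.

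By distance, Calca and Calcb stood nearest to different markers of that list. Calca over the sum of all 9 markers had a coefficient of variation of 23.1%, against 30.9% for Calca alone. For Calcb these were 27.2% and 54.3%. Mmp9, Isl1 and Ret were nearer to Calca (distances 0.26, 0.29 and 0.34) than to Calcb (0.60, 0.51 and 0.59), whereas Slc18a3, Slc5a7 and Chodl stood at 0.52, 0.60 and 0.56 from Calca. The distance also depends on how widely each gene varies, and Calca varied less than Calcb (SD of log2(FPKM + 1) 0.44 against 0.80). Isl1 and Ret had the same 3 lowest libraries as Calcb, which were not those of Calca. The lowest 3 libraries for Calca were knock-out replicate 4 and wild-type replicates 1 and 4, and its nearest genes were Layn (a hyaluronan receptor, 0.11), Sncg (gamma-synuclein, 0.14) and Cd24a (a cell surface glycoprotein, 0.16), with a median candidate at 0.44. Sncg is on the list of primary sensory neuron markers. It stood at 57.0 ± 12.4 FPKM in knock-out and 62.5 ± 21.9 FPKM in wild type (SD, n = 4 each). Most of that list was near 0: Trpv1, Scn10a, Scn11a, Avil, Prdm12, Mrgprd and Tlx2 each averaged under 1 FPKM over the 8 libraries. Scn10a, the sodium channel of nociceptors, reached 0.387 FPKM in 1 knock-out library and at most 0.006 FPKM in any wild-type library. It fell under the filter and was not tested, and a value near 0 in 1 library does not compare the genotypes. The summed list ran from 50.3 to 77.3 FPKM in knock-out and from 38.6 to 92.0 FPKM in wild type, most of it Sncg, and neither tested gene had an unadjusted p under 0.05.

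Adm (chr7:110627661-110629820, plus strand), the gene of the vasodilator peptide adrenomedullin, was a low transcript. It stood at 4.78, 3.41, 5.30 and 2.91 FPKM in knock-out replicates 1 to 4, against 5.49, 4.05, 4.84 and 3.84 FPKM in wild-type replicates 1 to 4. The groups overlapped, with knock-out replicates 2 and 4 below every wild-type library, and averaged 4.10 ± 1.12 FPKM in knock-out and 4.55 ± 0.761 FPKM in wild type (SD, n = 4 each). The log2 fold change was -0.14 (SE 0.17, 95% interval -0.53 to 0.25; limma adjusted p = 0.739). Adm is itself induced by low oxygen, and of 11 tested genes on a list of hypoxia-induced genes 4 lay above 0 and 7 below (median -0.046), with no unadjusted p under 0.05. Vegfa, the vascular endothelial growth factor gene, had a log2 fold change of 0.30 (SE 0.14) and P4ha1, a collagen prolyl hydroxylase, one of 0.33 (SE 0.20); without wild-type replicate 1 these were 0.17 and 0.16. The genes nearest to Adm were Acads (0.076), Cdk2ap2 (0.088) and Cav1 (0.088), against a median of 0.28.

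Calcrl (chr2:84330626-84425411, minus strand), the receptor subunit that all these complexes share and 1 of the 2 members with a miR-96 seed match, stood at 4.41, 5.30, 4.18 and 4.68 FPKM in knock-out replicates 1 to 4, against 4.00, 3.07, 2.85 and 4.68 FPKM in wild-type replicates 1 to 4. Every knock-out library lay above wild-type replicates 1 to 3, but wild-type replicate 4 was level with knock-out replicate 4 and above knock-out replicates 1 and 3. The means were 4.64 ± 0.487 FPKM in knock-out and 3.65 ± 0.851 FPKM in wild type (SD, n = 4 each). The log2 fold change was 0.29 (SE 0.14, 95% interval -0.028 to 0.62; unadjusted p = 0.0693, limma adjusted p = 0.62). It was 0.40 without wild-type replicate 4 (unadjusted p = 0.0161, limma adjusted p = 0.199) and 0.54 with limma's library weights (adjusted p = 0.0389). Those weights gave wild-type replicate 3 a weight of 5.09 and wild-type replicate 1 one of 0.153, and called 1627 genes in all, so most of the wild-type weight lay on a single library. Its nearest genes were Napsa (0.087), Ccdc15 (0.088) and Fam135a (0.088), against a median of 0.29.

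Ramp1 (chr1:91179822-91225196, plus strand), which makes Calcrl a CGRP receptor, was the most abundant member. It stood at 46.8, 44.3, 54.7 and 51.7 FPKM in knock-out replicates 1 to 4, against 92.0, 61.9, 57.9 and 44.5 FPKM in wild-type replicates 1 to 4. The knock-out libraries lay close together and below wild-type replicates 1 to 3, but wild-type replicate 4 lay among them. The means were 49.4 ± 4.70 FPKM in knock-out and 64.1 ± 20.1 FPKM in wild type (SD, n = 4 each), with a log2 fold change of -0.32 (SE 0.19, 95% interval -0.74 to 0.093; limma adjusted p = 0.62). Without wild-type replicate 1, where the ribosomal protein genes were also high, it was -0.14, and without wild-type replicate 4 it was -0.48 (unadjusted p = 0.0144, limma adjusted p = 0.198). The genes nearest to Ramp1 were Timm8b, a mitochondrial import chaperone (0.027), the GTPase gene Hras (0.035) and the translation elongation factor gene Eef1b2 (0.039), against a median of 0.36.

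Ramp2 (chr11:101246028-101259546, plus strand) makes Calcrl an adrenomedullin receptor. Its distance from Ramp1 was 0.13, which many other genes undercut: Ramp1 ranked 901 of 12859 by nearness to Ramp2, and Ramp2 ranked 436 by nearness to Ramp1. Ramp2 stood at 21.1, 21.6, 22.96 and 20.0 FPKM in knock-out replicates 1 to 4, against 34.4, 28.3, 24.3 and 20.9 FPKM in wild-type replicates 1 to 4. Wild-type replicates 1 to 3 were above every knock-out library and wild-type replicate 4 was among them. Ramp2 averaged 21.4 ± 1.25 FPKM in knock-out and 27.0 ± 5.80 FPKM in wild type (SD, n = 4 each), with a log2 fold change of -0.30 (SE 0.14, 95% interval -0.61 to 0.011; unadjusted p = 0.0571, limma adjusted p = 0.62). It was -0.18 without wild-type replicate 1 and -0.41 without wild-type replicate 4 (unadjusted p = 0.0077, limma adjusted p = 0.198). The Ramp2 value is uncertain in another way: 1103 of its 3301 annotated exonic bases (33.4%) also belong to Vps25 on the same strand, which averaged 0.473 FPKM in knock-out and 0.597 FPKM in wild type. The sources used here do not say how reads from the shared bases were divided. The low Vps25 value therefore does not limit how much of the Ramp2 value could come from Vps25. The genes nearest to Ramp2 were Inafm2 (0.031), Fcgr3, an Fc receptor of microglia and macrophages (0.043), and Sdhb, a subunit of succinate dehydrogenase (0.047), against a median of 0.29.

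Ramp3 (chr11:6658521-6677475, plus strand), the other adrenomedullin partner and the other member with a seed match, was the lowest of the 7. It stood at 2.67, 3.05, 3.49 and 2.13 FPKM in knock-out replicates 1 to 4, against 3.92, 2.60, 2.40 and 3.42 FPKM in wild-type replicates 1 to 4. High and low libraries occurred in both genotypes. The means were 2.84 ± 0.576 FPKM in knock-out and 3.09 ± 0.712 FPKM in wild type (SD, n = 4 each), and the log2 fold change was -0.088 (SE 0.16, 95% interval -0.45 to 0.27; limma adjusted p = 0.828). Its sign turned without knock-out replicate 4 (0.0057) or wild-type replicate 1 (0.0075). About 80 to 170 fragments a library stood behind these values, and 101 of its 1380 exonic bases (7.32%) are shared with the pseudogene Gm11978 on the opposite strand, where the sources used here do not say whether counting kept the strands apart. The genes nearest to Ramp3 were Spata2l (0.077), the Polycomb gene Cbx2 (0.080) and the growth factor gene Pdgfc (0.090), against a median of 0.26.

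**Figure D3:**
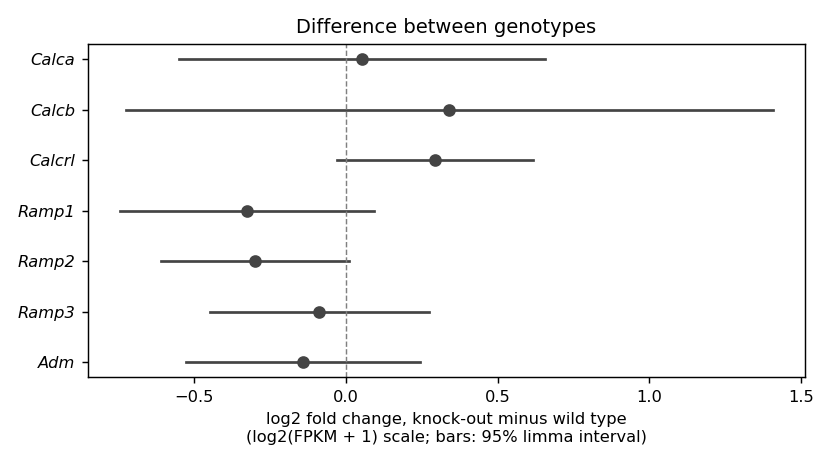
Log2 fold change of each gene, miR-96 knock-out minus wild type, on the log2(FPKM + 1) scale (points) with its 95% limma interval (bars), 4 libraries a genotype. All 7 intervals include 0; that of Calcb is widest (-0.72 to 1.41), and those of Calcrl (-0.028 to 0.62) and Ramp2 (-0.61 to 0.011) barely cross it.

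FPKM is scaled by length, so the levels of the 7 genes can be ordered. The Ramp2 level, here and in the shares and ratios below, keeps the uncertainty from exonic bases shared with Vps25. Over all 8 libraries Ramp1 averaged 56.7 FPKM (44.3 to 92.0), Ramp2 24.2 FPKM, Calca 21.1 FPKM, Calcb 6.41 FPKM, Adm 4.33 FPKM, Calcrl 4.15 FPKM and Ramp3 2.96 FPKM. Ramp1 was above Ramp2, and Calca above Calcb, in 8 of 8 libraries with ranges that did not overlap. The ranges of Ramp2 and Calca, of Calcb and Adm, and of Adm and Calcrl overlapped, the first of each being higher in 5 of 8 libraries, so these neighbours did not differ beyond their spread. Calcrl was higher than Ramp3 in 8 of 8 libraries although their ranges overlapped.

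Within a library, the shares of Ramp1 and Ramp2 varied little, and that of the low Ramp3 varied more. Ramp1 made up 67.0% ± 2.42 of the summed FPKM of the 3 Ramp genes in knock-out and 67.6% ± 2.53 in wild type, Ramp2 29.1% ± 1.87 in knock-out and 29.0% ± 1.93 in wild type, and Ramp3 3.85% ± 0.694 in knock-out and 3.41% ± 1.05 in wild type (SD, n = 4 each). The Ramp3 share ran from 2.81% to 4.98% over the 8 libraries, highest in wild-type replicate 4. Ramp1 was 2.31 ± 0.23 times Ramp2 in knock-out and 2.34 ± 0.247 times in wild type, with a coefficient of variation of 9.53% over the 8 libraries.

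Against Calcrl the RAMP genes varied more. Ramp1 was 10.6, 8.36, 13.1 and 11.04 times Calcrl in knock-out replicates 1 to 4, against 23.02, 20.2, 20.4 and 9.49 times in wild-type replicates 1 to 4. Wild-type replicates 1 to 3 stood above all knock-out libraries and wild-type replicate 4 stood among them. Ramp2 over Calcrl ran the same way, at 4.78, 4.08, 5.50 and 4.26 in knock-out replicates 1 to 4, against 8.60, 9.25, 8.54 and 4.45 in wild-type replicates 1 to 4. The means of Ramp1 over Calcrl were 10.8 ± 1.95 in knock-out and 18.3 ± 5.99 in wild type, and those of Ramp2 over Calcrl 4.65 ± 0.634 in knock-out and 7.71 ± 2.19 in wild type (SD, n = 4 each); no test was made on ratios. Calcrl is long (4882 nt, longer than 77.3% of the genes tested) where Ramp1 (2325 nt) and Ramp2 (1478 nt) are shorter. The slope of level on transcript length was 0.039, 0.030, 0.001 and 0.009 in knock-out replicates 1 to 4, against -0.100, -0.015, -0.006 and 0.042 in wild-type replicates 1 to 4. The part of transcript length in the ratios was not tested. With a trend on length removed from each library, the log2 fold changes were 0.22 (SE 0.14) for Calcrl, -0.26 (SE 0.16) for Ramp1 and -0.18 (SE 0.088) for Ramp2.

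**Figure D4:**
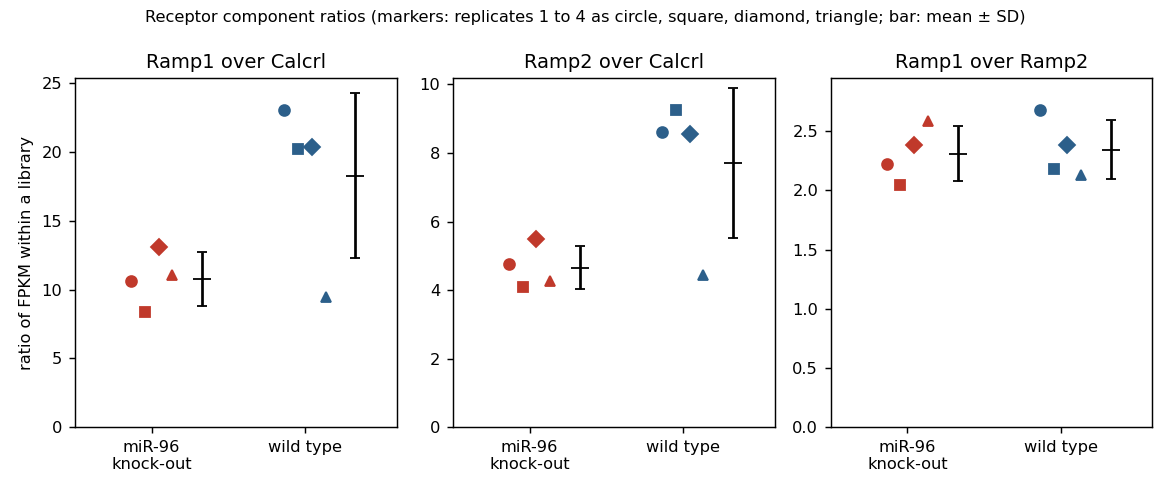
FPKM ratios within each library, for miR-96 knock-out (red, left) and wild type (blue, right), with mean ± SD of 4 libraries and a marker shape for each replicate number. Ramp1 over Calcrl is 20.2 to 23.02 in wild-type replicates 1 to 3 and 8.36 to 13.1 in the knock-out libraries, with wild-type replicate 4 at 9.49, whereas Ramp1 over Ramp2 stays between 2.05 and 2.68 in all libraries.

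Markers of endothelial cells, which are known to use these receptors, were present in every library. The 10 endothelial markers summed to 180 to 230 FPKM in knock-out and 198 to 254 FPKM in wild type; 4 had a log2 fold change above 0 and 6 below (median -0.037). Of these 10, 1 had an unadjusted p under 0.05, lower in knock-out, against 1.83% of all genes tested. This was Emcn, the endothelial sialomucin gene endomucin, at 2.92 ± 0.103 FPKM in knock-out and 4.08 ± 1.09 FPKM in wild type (SD, n = 4 each; log2 fold change -0.35, unadjusted p = 0.0419, limma adjusted p = 0.62). Lymphatic markers (3 of 5 tested, median 0.12) and pericyte and smooth muscle markers (6 of 7 tested, median 0.0091) had no unadjusted p under 0.05, nor had the 7 meningeal fibroblast markers, all with values above 0 (median 0.27; summed level 89.6 to 207 FPKM in knock-out and 87.5 to 130 FPKM in wild type). The lymphatic markers not tested, Lyve1 and Ccl21a, averaged under 1 FPKM, so lymphatic cells were not shown to be present. Of the other lists, excitatory neurons had 1 of 11 genes higher and inhibitory neurons 2 of 8 lower at an unadjusted p under 0.05 (medians -0.17 and -0.079). Over all genes tested, limma called 3.69% higher and 1.83% lower at that threshold. Astrocytes (median 0.067), microglia (-0.028), oligodendrocytes (-0.13) and Schwann cells (-0.10) had no such gene. Blood genes had none either (median -0.37), and their sum was 17.8 to 39.3 FPKM in knock-out and 5.96 to 199 FPKM in wild type, with wild-type replicate 1 the highest. The part of these cells in the receptor values was not tested.

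The remaining genes of the pathway showed no call at an adjusted p under 0.05. Of 6 other family genes, Adm2 and Iapp (amylin) were listed at 0 in all libraries, and Calcr, the calcitonin receptor, averaged 0.185 FPKM in knock-out and 0.219 FPKM in wild type. Crcp, which encodes an intracellular protein that couples the CGRP receptor to its signalling, averaged 28.3 ± 1.68 FPKM in knock-out and 34.4 ± 6.69 FPKM in wild type (SD, n = 4 each; log2 fold change -0.25, SE 0.12, limma adjusted p = 0.62; -0.13 without wild-type replicate 1). Ackr3, a receptor that takes up adrenomedullin in mice, had a log2 fold change of 0.08 (SE 0.15), which was -0.10 with library weights and -0.0088 without wild-type replicate 4; Gpr182 averaged under 1 FPKM.

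Peptide processing and storage genes numbered 12, with 7 values above 0 and 5 below (median 0.053) and no unadjusted p under 0.05. The lowest p belonged to Pcsk1n, an inhibitor of the proprotein convertase PC1, at 332 ± 23.5 FPKM in knock-out and 422 ± 105 FPKM in wild type (SD, n = 4 each; log2 fold change -0.32, SE 0.15), and to Scg5, the chaperone of the convertase PC2 (-0.23, SE 0.12). Without wild-type replicate 1 these values were -0.16 for Pcsk1n and -0.13 for Scg5. Among 7 genes of peptide degradation and receptor recycling, 5 lay above 0 and 2 below (median 0.013). At an unadjusted p under 0.05, 1 was lower in knock-out, against 1.83% of all genes tested. This was Grk2, a kinase that desensitises G-protein-coupled receptors, at 144 ± 8.07 FPKM in knock-out and 163 ± 6.29 FPKM in wild type (SD, n = 4 each), with groups that did not overlap (log2 fold change -0.18, SE 0.079, unadjusted p = 0.0456, limma adjusted p = 0.62). Knock-out lay below wild type without overlap for 1.12% of all genes tested, Pcsk1n among them. The unadjusted limma p of Grk2 was 0.272 with quantile scaling (log2 fold change -0.10), 0.107 with a replicate block, 0.0567 without the trend and robust options, and 0.069 to 0.131 without knock-out replicate 1, 2 or 4 or wild-type replicate 2, 3 or 4. It was 0.0153 with the length trend removed, 0.0272 with median-ratio scaling, 0.0171 without wild-type replicate 1 and 0.0387 without knock-out replicate 3. With library weights the adjusted p of Grk2 was 0.0448. Mme, the peptidase neprilysin, had a log2 fold change of 0.26 (SE 0.17). It was 0.06 with the length trend removed, 0.46 with library weights (limma adjusted p = 0.0389) and 0.44 without wild-type replicate 4 (limma adjusted p = 0.198).

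Of 23 genes of Gs and Gq signalling, 19 lay above 0 and 4 below (median 0.080), and none had an unadjusted p under 0.05. Over all genes tested, 53.1% lay above 0. The median of the list was -0.0017 without wild-type replicate 1, and 0.067 to 0.158 without any other single library. Its place above 0 therefore depended on wild-type replicate 1. The lowest p belonged to the adenylyl cyclase gene Adcy1, at 43.0 ± 2.87 FPKM in knock-out and 34.1 ± 10.3 FPKM in wild type, and to the phospholipase gene Plcb4, at 74.7 ± 11.6 FPKM in knock-out and 59.2 ± 19.3 FPKM in wild type (SD, n = 4 each). Wild-type replicate 1 was the lowest of the 8 libraries for Adcy1, at 20.4 FPKM, and wild-type replicate 2 the lowest for Plcb4, at 46.0 FPKM. The log2 fold change of Adcy1 was 0.38 (SE 0.20), and 0.16 without wild-type replicate 1 or 0.08 with the length trend removed. That of Plcb4 was 0.36 (SE 0.20), and 0.57 without wild-type replicate 4 (limma adjusted p = 0.198) or 0.58 with library weights (limma adjusted p = 0.0389).

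**Figure D5:**
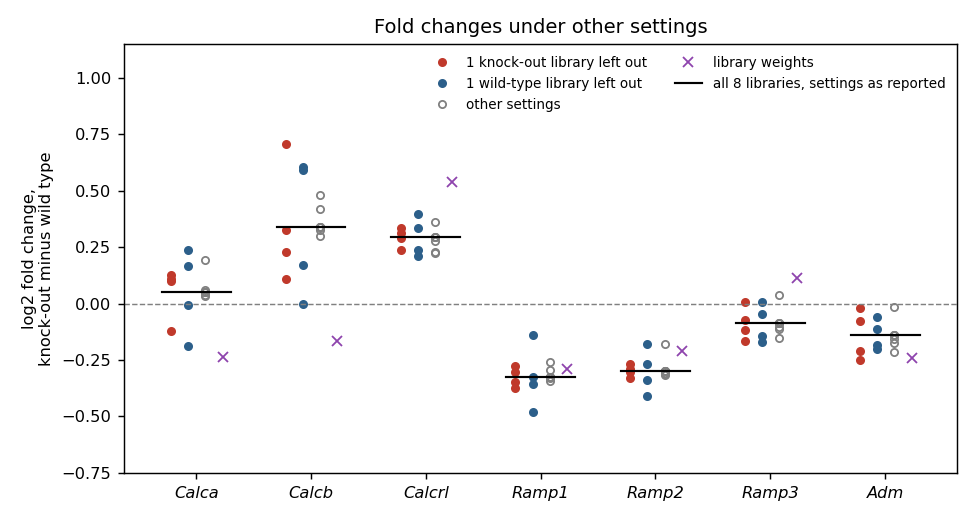
Log2 fold change of each gene, miR-96 knock-out minus wild type, with all 8 libraries (black bars), with 1 knock-out (red) or 1 wild-type (blue) library left out, with library weights (crosses) and with other settings (open circles). Calcrl stays above 0 and Ramp1, Ramp2 and Adm below 0 in all of these, while Calca, Calcb and Ramp3 take both signs.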

How the data were processed

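Per the labels' protocols, 1 µg of total RNA a sample went into a NEBNext Ultra library of polyadenylated RNA. HISAT2, SAMtools and Cufflinks were used, per the submitters' processing notes; no version or setting is stated for them in the sources used here. Each file deposited by the authors holds FPKM per gene, with an identifier and a locus, per the file headers. FPKM are not counts, and no count model was fitted. The processing notes list build mm8, but deposited loci equalled the GRCm38 annotation (GENCODE M21) for 45128 genes, 91.5% of the 49326 with a symbol, and for all 7 members, so coordinates are on GRCm38, numbered from 1. Depth was estimated from single-transcript genes of at least 3000 nt with an assumed fragment of 200 nt; 98.2% to 99.1% of their values lay within 0.15 of a whole fragment, against 30% by chance. Fragment numbers built on it hold only as far as that assumption, and no counting interval is given.

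The genotypes were compared gene by gene with limma (version 3.58.1, run in R 4.3.3; moderated two-sided test, with eBayes set to trend and robust) wherever mean FPKM reached 1. Values were taken as log2(FPKM + 1), a scale that understates changes of low genes, with Benjamini-Hochberg adjustment over 15061 genes and a threshold of 0.05. The code was tested on simulated data. No replicate block was used. From each pathway list the 2 genes of lowest unadjusted p are named, and for each member the 3 nearest protein-coding genes. Calcr, Scn10a, Slc17a6, Slc32a1 and Sncg are named as markers or family members. Emcn is named as the endothelial marker with an unadjusted p under 0.05. The members and lists were chosen with earlier results of these data known. Alternatives were another pseudocount (0.1), no filter or a mean of at least 5 FPKM, median-ratio and quantile scaling, removal of a length trend, other limma options, library weights, a replicate block, and leaving out each library.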

Additional observations from a re-analysis of the deposited data

Results flagged for a closer look

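In groups of 4 libraries, a value was picked out where its gap to the nearest of the others, as a share of the group's range, exceeded Dixon's 95% critical value. Chance picks out about 1 in 20 groups, and 5 of 46 groups of values were picked out. Of the 46, 14 were groups of member values, and the others were ratios, shares and sums that reuse the same genes. The groups are therefore not independent, and 5 of 46 cannot show an excess over 1 in 20. Knock-out replicate 1 had 30.08 FPKM of Calca where its group otherwise spanned 17.7 to 18.7 FPKM. The ratio of Calca to Calcb reached 7.458 in knock-out replicate 3, with 2.11 to 2.80 in the rest of the group. Wild-type replicate 4 had a ratio of Ramp2 to Calcrl of 4.455 where wild-type replicates 1 to 3 had 8.54 to 9.25. Ramp3 made up 4.976% of the summed Ramp genes in wild-type replicate 4, against 2.81% to 3.01% in the others. Calca over the summed motor and cholinergic markers was 0.382 in wild-type replicate 1, against 0.268 to 0.284 in the others.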

How the results depend on the processing

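Calcrl kept a log2 fold change above 0, and Ramp1, Ramp2 and Adm one below 0, under every alternative that gave a value; of the members, only Calcrl passed an adjusted p of 0.05, with library weights (0.54). Leaving out 1 library gave -0.19 to 0.24 for Calca (-0.12, -0.0045 and -0.19 without knock-out replicate 1 and wild-type replicates 1 and 4), -0.0015 to 0.70 for Calcb, 0.21 to 0.40 for Calcrl, -0.48 to -0.14 for Ramp1, -0.41 to -0.18 for Ramp2, -0.17 to 0.0075 for Ramp3 (0.0057 without knock-out replicate 4) and -0.25 to -0.021 for Adm; for Ackr3 it gave -0.0088 to 0.18. Library weights turned Calca (-0.24), Calcb (-0.17), Ramp3 (0.11) and Ackr3 (-0.10), removing the length trend turned Ramp3 (0.038), and leaving out wild-type replicate 4 turned Ackr3 (-0.0088). With library weights limma called 1627 genes at an adjusted p under 0.05 (1012 higher, 615 lower) and 5014 at an unadjusted p under 0.05, 3 members among them; quantile scaling gave 1 member (Ramp2). Testing all 31319 genes with no filter, 1396 reached an unadjusted p under 0.05. With single libraries dropped there were 0 to 1 genes past the adjusted threshold, 325 to 3151 genes and 0 to 3 members at an unadjusted p under 0.05. The causes of these shifts were not tested. Calcrl, Ramp3 and Adm fell under the filter of 5 FPKM. Of 169 values of the 10 other named pathway genes, 164 kept their direction and their side of an adjusted p of 0.05; the others were Grk2, Plcb4 and Mme, which passed it with library weights, and Ackr3. Sizes and unadjusted p-values moved more widely.

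The replicate numbers gave no sign of pairing the libraries: correlations of same-numbered deviations were -0.11, -0.055, 0.024 and 0.14. No same-numbered pair had the highest correlation for both of its libraries. With a replicate block 0 genes passed the adjusted threshold, 790 had an unadjusted p under 0.05, and the count of members stayed 0.

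With 4 libraries a genotype, 95% intervals of members spanned 0.62 to 2.13 on the log2 scale.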
